A study of Mus musculus with 9 samples.

Results

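The 34 genes described here encode the enzymes of sterol synthesis from acetyl-CoA (18 genes), the proteins that control or distribute sterols (7 genes) and the enzymes of fatty acid synthesis (9 genes). They were chosen by symbol as members of these pathways, and all 34 were found among the 52160 gene symbols analysed. Their RNA was measured by sequencing polyadenylated RNA from whole kidneys of mice at 16 weeks of age, in 3 groups of 3 libraries. The first group was wild type (WT, C57Bl/6N, bought from a supplier). The second, Ybx1ΔPod (ΔPod), lacked Ybx1, a cold shock protein that binds DNA and RNA, in podocytes, the filter cells of the glomerulus. The third, Ybx1K2A (K2A), carried in podocytes the substitutions K299A and K302A, which lie in exon 7 of Ybx1 and give a secretion-deficient protein. The labels state the C57Bl/6N background for all 3 groups, name no agent given to any animal and no driver of the podocyte deletion, and do not say whether littermates served as WT. Nor do they state that the libraries are of different animals. The p-values therefore measure only the spread between these libraries, which may be technical. Both mutations concern podocytes, a minor cell type of the whole kidney from which the RNA was taken.

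Cholesterol is built from acetyl-CoA through mevalonate, isoprenoid units, squalene and lanosterol. Fatty acids are built from the same acetyl-CoA, which is made from citrate or acetate, and are then elongated and desaturated. The transcription factors SREBP1 (gene Srebf1) and SREBP2 (gene Srebf2) switch on most of these genes. SCAP escorts them out of the endoplasmic reticulum when sterols are low, and the INSIG proteins hold them back when sterols are high. The proximal tubule, the largest part of the kidney cortex, lives mainly on fatty acid oxidation and makes sterols for its own membranes.

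Total counts ran from 30776806 to 46852490 per library, and the lowest count of any of the 34 genes in any library was 55, for Acaca. Ybx1 itself, measured in all kidney cells together, stood at 1189.7, 1585 and 1185 CPM in the WT libraries, 1167, 881 and 605 in ΔPod and 1078, 1152 and 554 in K2A. Every mutant library lay below every WT library, in K2A as in ΔPod. Since podocytes are a minor cell type of this tissue, these values cannot check the deletion. All 10 markers of the nephron segments and podocytes were detected in every library. A pair of properties ran across the groups. The WT libraries held between 94.4 and 119 CPM (counts divided by the TMM-scaled library size) of Y-linked RNA and no count of Xist, the RNA of the inactive X chromosome. The ΔPod and K2A libraries held from 17.0 to 331 CPM of Xist and at most 0.682 CPM of Y-linked RNA. The WT libraries thus had a male pattern and all others a female one, so that genotype and sex cannot be told apart in any comparison with WT. The libraries also differed in how strongly their counts rose with transcript length. WT 1, WT 3, ΔPod 3 and K2A 3 had relatively more counts of long transcripts (called long libraries here), and WT 2, ΔPod 1, ΔPod 2, K2A 1 and K2A 2 relatively fewer (short libraries). The short genes of ribosomal proteins made up 0.994 to 1.16% of counts in the long libraries and 2.43 to 7.84% in the short ones. On the first principal component (71.5% of the variance) the 4 long libraries lay at one end, with WT 2 next to them and the other short libraries at the far end. No label names this split, and it was handled below by a fit that carries each library's length slope as a covariate. The sum of the 10 kidney markers was 18537, 9088 and 17267 CPM in WT, 2895, 5284 and 14461 CPM in ΔPod and 6160, 5653 and 12075 CPM in K2A, so it was lower in the 5 short libraries. Their median log2 fold change with groups only was -0.57 in ΔPod (8 of 10 negative) and -0.35 in K2A (7 of 10 negative), beside -0.55 and -0.62 for the 34 genes, and none of the 10 passed. With the length slope it was -0.11 and 0.039, beside -0.44 and -0.43 for the 34 genes; Slc34a1, a phosphate transporter of the proximal tubule, fell in both and Nphs1, a podocyte gene, rose in K2A. The part of these cell types in the results was not tested. In bulk kidney, fewer cells of a type and less RNA per cell cannot be told apart.

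Promoters of these genes are known for boxes bound by NF-Y and Sp1, factors that act together with SREBP. RefSeq promoter windows (GRCm38.p6, 250 bases before to 50 bases after a start) were found for 27 of the 34 genes, as 35 windows. The NF-Y box, searched as CCAAT on both strands, stood in a window of 21 of the 27 genes (77.8%), against 41.1% of 27025 genes and 37.4% of 32851 windows. The Sp1 box, searched as GGGCGG on both strands, stood in 22 of 27 (81.5%), against 38.2% of genes and 35.7% of windows. CACGTG, an E-box that reads the same on both strands, was found in 5 of 27 genes (18.5%), against 8.09%. TCACNCCAC, a classic form of the sterol regulatory element, was found on either strand in 1 gene, Hmgcs1, against 1.44% of all genes. No motif overlapped another in the sequences shown. The 4 sequences below belong to 3 genes with lower values in the mutant groups, one at the head of the mevalonate path (Hmgcs1), one inside it (Mvd) and one that supplies acetyl-CoA (Acss2), and to a gene with higher values (Elovl6). Each runs 5′ to 3′ on the gene's own strand and stops before the first transcribed base in RefSeq and in GENCODE vM21, and capitals mark matches to the 4 motifs. Hmgcs1 lies on the plus strand (chr13:119690101-119690350), Mvd on the minus strand (chr8:122443423-122443672), Acss2 on the plus strand (chr2:155517793-155517947) and Elovl6 on the plus strand (chr3:129532136-129532354).
Hmgcs1: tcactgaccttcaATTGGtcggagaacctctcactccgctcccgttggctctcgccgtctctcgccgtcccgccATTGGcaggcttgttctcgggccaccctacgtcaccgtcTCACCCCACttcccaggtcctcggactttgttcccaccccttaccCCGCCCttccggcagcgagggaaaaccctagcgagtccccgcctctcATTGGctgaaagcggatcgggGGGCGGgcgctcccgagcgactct
Mvd: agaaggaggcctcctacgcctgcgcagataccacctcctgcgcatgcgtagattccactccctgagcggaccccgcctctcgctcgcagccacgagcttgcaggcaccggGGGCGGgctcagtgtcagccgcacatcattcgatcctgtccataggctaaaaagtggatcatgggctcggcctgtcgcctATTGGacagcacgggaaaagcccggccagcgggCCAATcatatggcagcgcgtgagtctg
Acss2: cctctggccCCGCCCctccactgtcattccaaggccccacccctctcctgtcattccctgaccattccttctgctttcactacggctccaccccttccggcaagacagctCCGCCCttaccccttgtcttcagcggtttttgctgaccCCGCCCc
Elovl6: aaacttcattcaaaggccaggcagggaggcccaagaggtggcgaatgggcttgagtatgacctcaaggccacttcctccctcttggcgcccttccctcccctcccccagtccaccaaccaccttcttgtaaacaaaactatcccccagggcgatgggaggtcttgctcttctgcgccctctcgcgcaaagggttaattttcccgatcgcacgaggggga
The Hmgcs1 sequence holds 3 NF-Y boxes, 2 Sp1 boxes and the single sterol regulatory element, the Mvd sequence 2 NF-Y boxes and 1 Sp1 box, and the Acss2 sequence 3 Sp1 boxes. Acss2 is among the 21 genes counted with an NF-Y box, but that box is not within the 155 bases shown. The Elovl6 sequence holds none of the 4 motifs, which says only that these letters are absent from these 219 bases.

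In WT kidneys the sterol enzymes spanned a wide range of levels. Per kilobase of merged exon length, the highest level among the 34 genes was that of Hmgcs1, at 106 ± 20.5 CPM per kb (SD, n = 3). The desaturase gene Fads2 (71.2 ± 20.1), the lanosterol demethylase gene Cyp51 (63.2 ± 2.34) and Mvd (46.0 ± 1.61) came next, and the neighbours Hmgcs1 and Fads2, and Fads2 and Cyp51, overlapped within their SD. The lowest levels were those of Acaca (0.684 ± 0.341), Lss (2.03 ± 0.597), Elovl6 (2.12 ± 0.510) and Fdps (2.82 ± 0.366). The enzyme that commits acetyl-CoA to fatty acids, Acaca, was thus read at a much lower level per kilobase of merged exons than the first mevalonate enzyme, Hmgcs1. Merged exon length joins all annotated exons of a gene (17074 bases for Acaca, 4594 for Hmgcs1). It can exceed the length of the transcripts present, which lowers the level per kilobase. Fdps also shares 1124 exon bases with Gm43738 on the same strand. Much of the SD of the fatty acid genes came from the WT 2 library, a short library in which Fasn stood at 16.1 CPM against 93.6 and 87.2 CPM in the others.

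**Figure D1:**
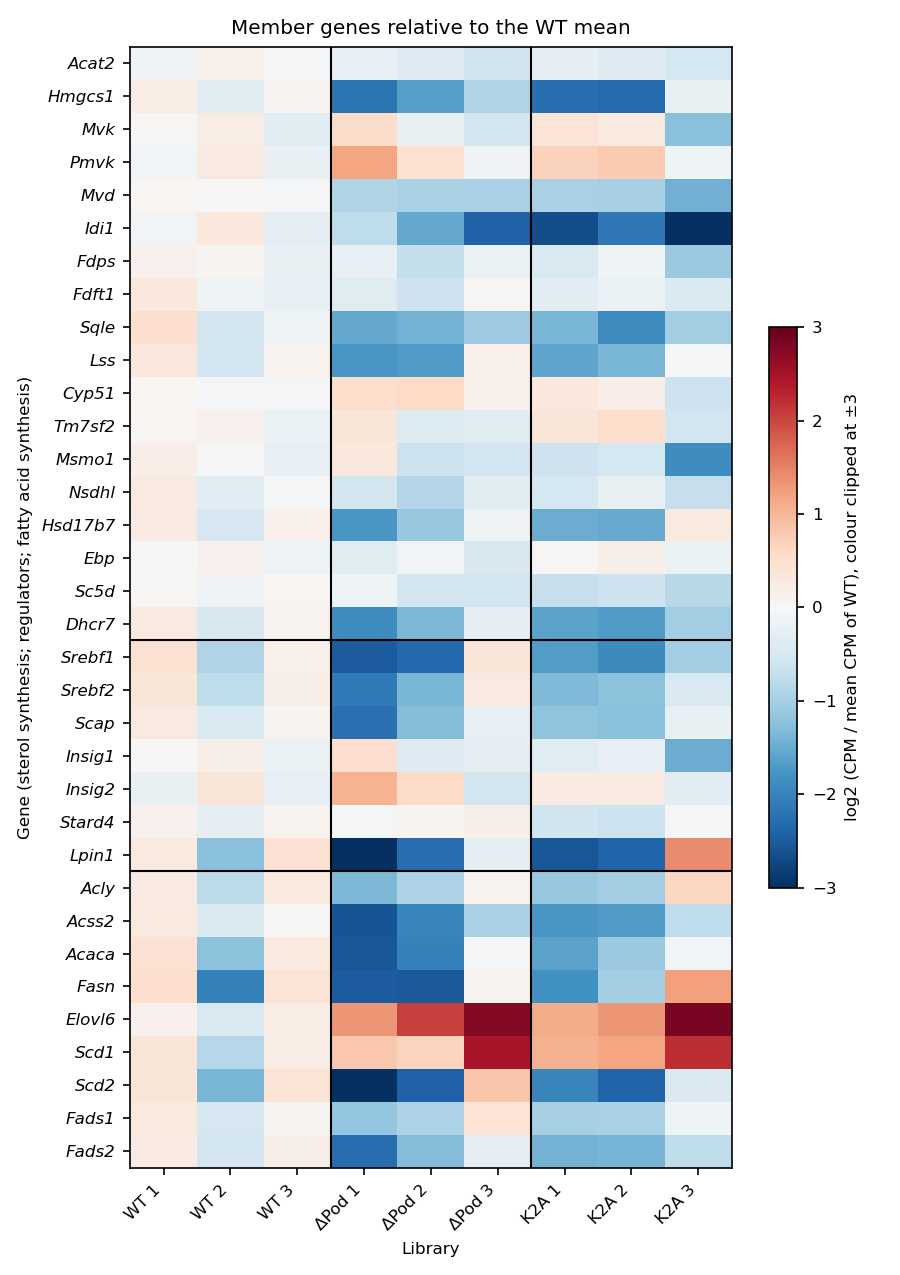
Heat map of the 34 genes (rows, in blocks of sterol synthesis, regulators and fatty acid synthesis) in the 9 libraries (columns). Colour gives the log2 ratio of a library's CPM to the WT mean, clipped at ±3: Idi1, Mvd, Sqle, Dhcr7 and Acss2 are blue in all 6 mutant libraries, Elovl6 and Scd1 are red in all 6, and Srebf2, Scap and Fasn are blue in ΔPod 1 and ΔPod 2 but near the WT mean in ΔPod 3.

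In ΔPod kidneys the enzymes of the mevalonate and sterol path lay mostly below WT, while 2 fatty acid genes, Elovl6 and Scd1, lay above it. Of the 34 genes, 26 had a negative log2 fold change, and the median was -0.55 over the 34 genes against 0.08 over all 18067 tested genes. Without ΔPod 3 the median of the 34 was -1.03. None of the 34 passed the edgeR quasi-likelihood test at a false discovery rate of 0.05, which called 0.985% of all tested genes. At an unadjusted p under 0.05, 7 passed (20.6% of the 34, against 13.8% of all genes): Hmgcs1, Mvd, Idi1, Sqle, Acss2, Elovl6 and Scd1. DESeq2 called 4 of them, Mvd, Sqle, Acss2 and Elovl6 (11.8%, against 5.52%), and limma-voom called 0 (against 1.20%). In 8 genes every ΔPod library was below every WT library (23.5%, against 9.47% of all genes), and in 3 every one was above (8.82%, against 8.73%).

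With the length slope as covariate the spread was smaller and 12 of the 34 genes passed in ΔPod. The 10 that fell (29.4%, against 7.99% of all tested genes) were Acat2, Hmgcs1, Mvd, Idi1, Sqle, Sc5d, Dhcr7, Scap, Acss2 and Fads2. Elovl6 and Scd1 rose (5.88%, against 6.09%), so the share of genes that rose was no larger than in the whole table. The median was -0.44 over the 34 genes and 0.01 over all genes. The slope was estimated from the same counts, and the calls depend on single libraries: 7 genes passed without WT 1 and 6 without WT 2. The shares of all tested genes called in those fits are not reported here. Mvd, Idi1, Acss2, Elovl6 and Scd1 passed in all 9 fits that left out 1 library. Within the length classes, 17 of the 34 genes lay below WT in both the long and the short libraries, where WT 2 is the only short WT library (against 20.5% of all genes) and 4 lay above in both (11.8%, against 19.1%).

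In K2A kidneys the same comparison was made with the same WT libraries, so the values below are not independent of those in ΔPod. Of the 34 genes 25 had a negative log2 fold change, with a median of -0.62 against 0.09 over all genes, and of -1.03 without K2A 3. The edgeR test called none (against 0.847% of all genes), 9 had an unadjusted p under 0.05 (26.5%, against 10.6%), DESeq2 called 6 (17.6%, against 5.03%) and limma-voom called 1, Idi1 (2.94%, against 1.05%). The 6 of DESeq2 were Mvd, Idi1, Sqle, Sc5d, Dhcr7 and Elovl6. In 11 genes every K2A library was below every WT library (32.4%, against 9.18%), and in 2, Elovl6 and Scd1, every one was above (5.88%, against 11.0%). With the length slope as covariate 11 genes fell (32.4%, against 8.34%): Acat2, Hmgcs1, Mvd, Idi1, Sqle, Msmo1, Sc5d, Dhcr7, Insig1, Acss2 and Fads2. Elovl6 and Scd1 rose (5.88%, against 7.46%). In that fit the median was -0.43 over the 34 genes and -0.0011 over all genes, and 9 of the 13 calls were made in all 9 fits that left out 1 library, the exceptions being Acat2, Hmgcs1, Insig1 and Fads2. Within the length classes 21 genes lay below WT in both (61.8%, against 21.7%) and 3 lay above in both (8.82%, against 21.5%). Here too the short class does not match for length: the slope was -0.058 in WT 2 and -0.21 and -0.22 in the short K2A libraries.

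**Figure D2:**
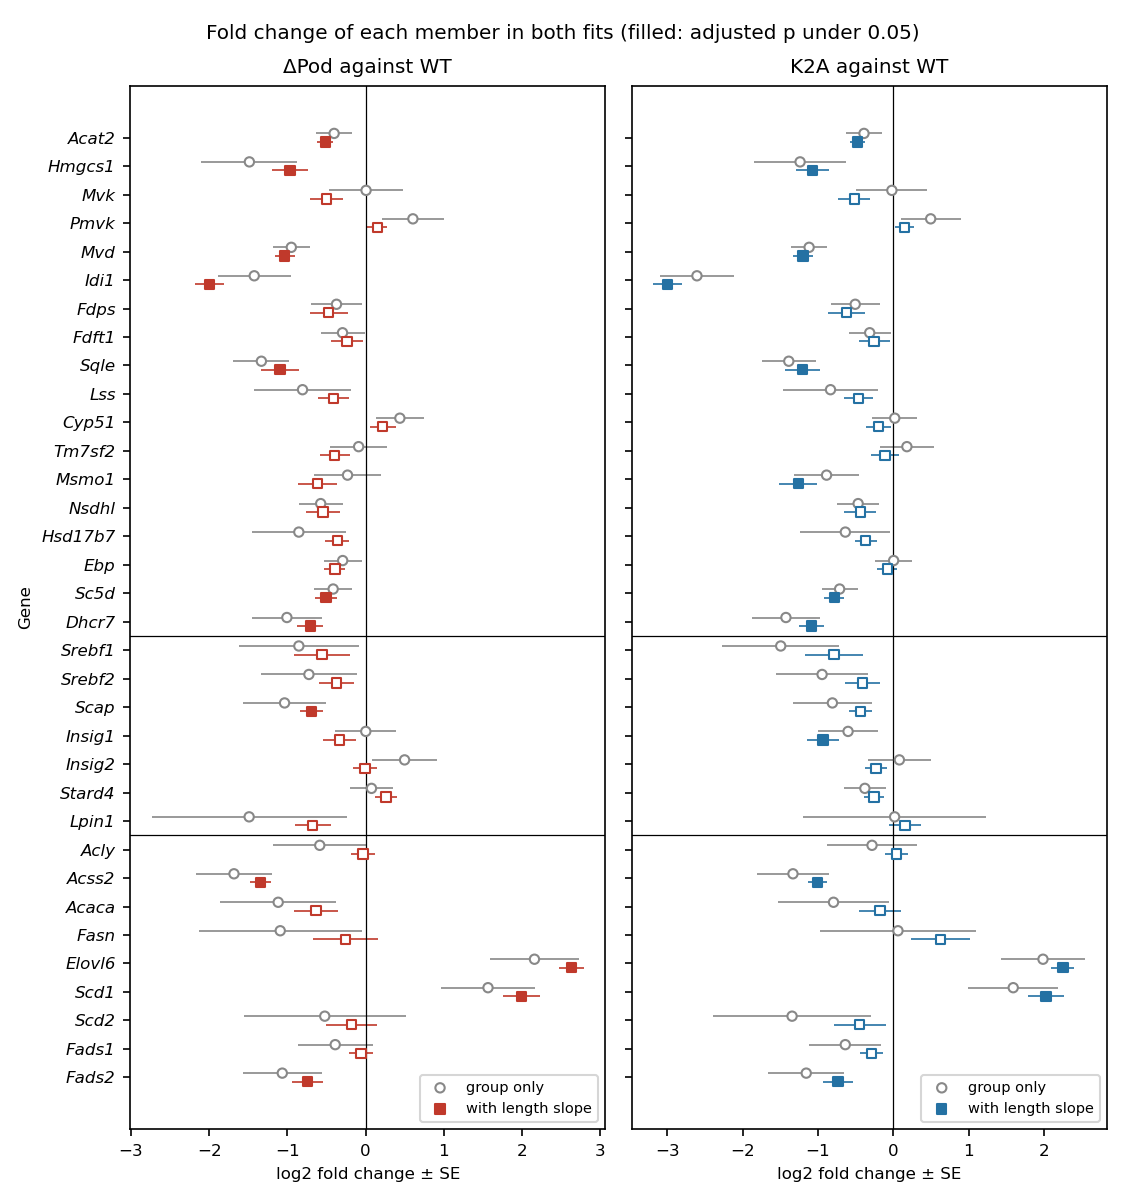
Log2 fold change ± SE of each gene (vertical axis) against WT in ΔPod (left) and K2A (right), from the fit with groups only (grey circles) and with the length slope as covariate (coloured squares). Filled symbols have an adjusted p under 0.05: none of the grey circles is filled, while 12 squares are filled in ΔPod and 13 in K2A, of which Elovl6 and Scd1 lie right of 0 and all others left of it.

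Among the enzymes of sterol synthesis, Idi1 had the lowest log2 fold change of the 18 genes with the length slope in both genotypes. Idi1 (chromosome 13, 8885501 to 8892451, mm10) encodes the isomerase that interconverts the 2 isoprenoid building blocks. Its level was 21.4, 28.3 and 18.6 CPM in the WT libraries, 13.4, 7.85 and 4.21 in ΔPod and 3.60, 5.16 and 2.47 in K2A. No mutant library reached the lowest WT library, and K2A 3 was the lowest of all. In log2 terms the change with groups only was -1.42 (SE 0.47, adjusted p = 0.27) in ΔPod and -2.60 (SE 0.49, adjusted p = 0.0547) in K2A. Once the length slope was in the fit it was -1.997 (SE 0.19, adjusted p = 0.000209) and -2.99 (SE 0.19, adjusted p = 2.66e-05). The K2A value was close to the threshold with groups only, and passed it under several other settings, such as limma-voom (adjusted p = 0.0397) or library size alone (edgeR, adjusted p = 0.0433).

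Mvd (chromosome 8, 122433601 to 122443422), which makes the first isoprenoid unit from mevalonate diphosphate, was close to even within WT and ΔPod. It stood at 88.3, 85.6 and 82.3 CPM in the WT libraries, 45.6, 43.5 and 43.6 in ΔPod and 43.8, 43.1 and 31.3 in K2A. The WT libraries lay within a few CPM of each other, and all 6 mutant libraries lay well below them, long and short ones alike. K2A 3 was the lowest library. Its log2 fold change was -0.95 (SE 0.24, adjusted p = 0.139) in ΔPod and -1.12 (SE 0.24, adjusted p = 0.0881) in K2A with groups only, and -1.03 (SE 0.13, adjusted p = 0.0011) and -1.20 (SE 0.13, adjusted p = 0.000447) with the length slope. Both within the long libraries and within the short ones Mvd lay below WT, at -0.96 and -0.99 in ΔPod and -1.43 and -1.01 in K2A. Mvk and Pmvk, the kinases just before it, did not pass in either fit. In the second fit Mvk had -0.50 in ΔPod and -0.52 in K2A, and Pmvk had 0.15 and 0.15.

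At the head of the path, Acat2 joins a pair of acetyl-CoA molecules and Hmgcs1 adds the third. Acat2 stood at 90.1, 108 and 93.3 CPM in the WT libraries, 81.7, 74.6 and 63.8 in ΔPod and 80.7, 74.3 and 67.2 in K2A. Every mutant library was below every WT library, by a small margin, and the log2 fold change with the length slope was -0.52 (SE 0.10, adjusted p = 0.0128) in ΔPod and -0.48 (SE 0.10, adjusted p = 0.0139) in K2A. Hmgcs1 stood at 566, 384 and 515 CPM in the WT libraries, 106, 156 and 261 in ΔPod and 103, 98.9 and 420.1 in K2A. The ΔPod libraries lay below WT without overlap, whereas K2A 3 lay inside the WT range. Its log2 fold change with groups only was -1.49 (SE 0.61, adjusted p = 0.351) in ΔPod and -1.24 (SE 0.61, adjusted p = 0.547) in K2A, and with the length slope -0.96 (SE 0.23, adjusted p = 0.0256) and -1.07 (SE 0.22, adjusted p = 0.0108). In K2A the value with groups only rested mostly on the short libraries: without K2A 1 and K2A 2 it was -0.23. It was -1.97 in the short libraries alone and -0.35 in the long ones alone, which hold 1 K2A library.

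Of the enzymes that carry farnesyl units to squalene and on to lanosterol, Sqle, the squalene epoxidase and a control point of the path, was the one that passed. It stood at 125, 60.6 and 80.8 CPM in the WT libraries, 30.7, 33.4 and 41.8 in ΔPod and 34.6, 24.04 and 43.4 in K2A. WT 1 was the highest library and WT 2 the lowest of WT, and all 6 mutant libraries were lower still. This gave a log2 fold change of -1.33 (SE 0.36, adjusted p = 0.176) in ΔPod and -1.39 (SE 0.36, adjusted p = 0.165) in K2A with groups only, and -1.09 (SE 0.24, adjusted p = 0.0182) and -1.21 (SE 0.23, adjusted p = 0.00857) with the length slope. Fdps, Fdft1 and Lss, which make farnesyl diphosphate, squalene and lanosterol, had values between -0.62 and -0.26 in K2A and between -0.47 and -0.24 in ΔPod with the length slope, and none passed.

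**Figure D3:**
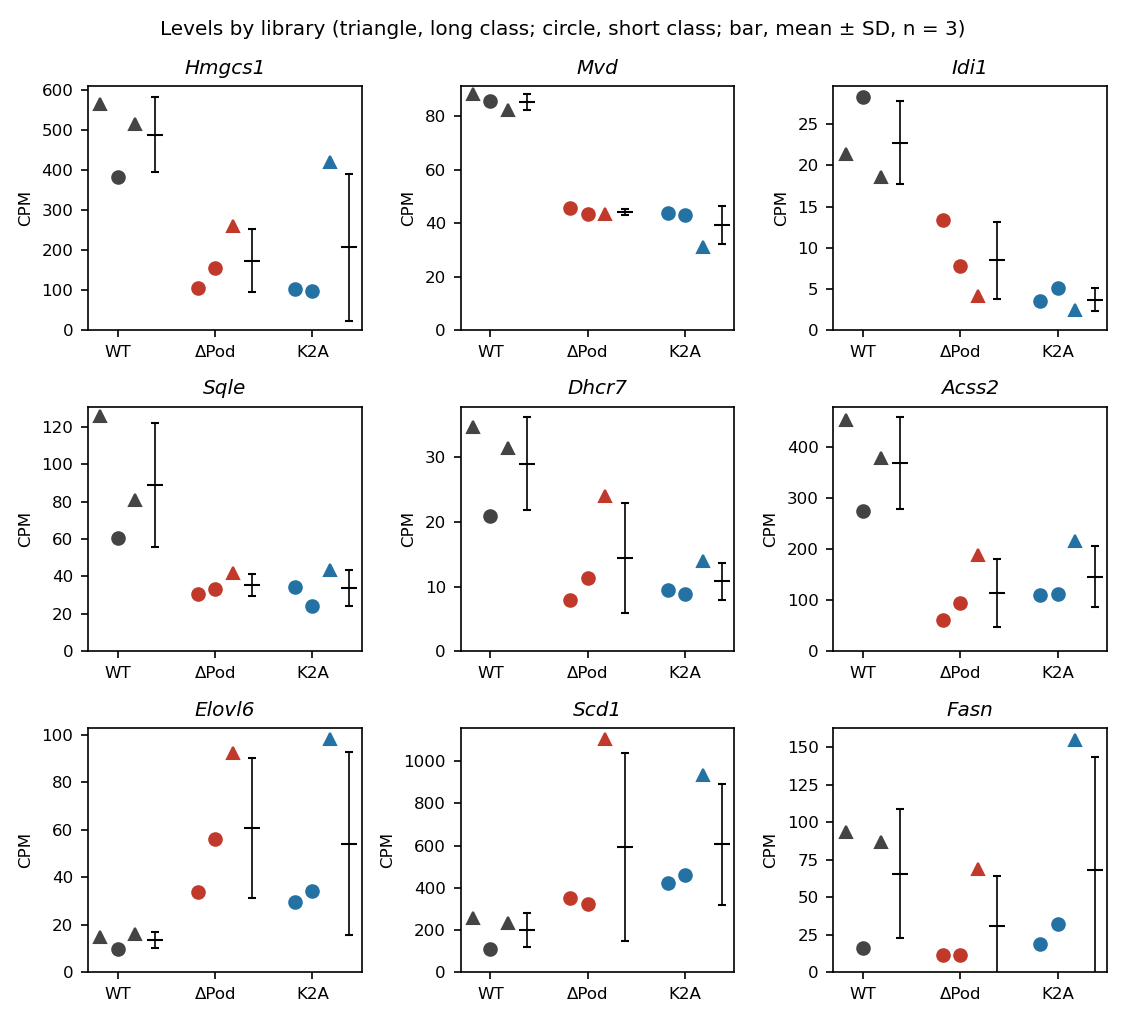
CPM (vertical axes, from 0) of 9 genes in each library of WT, ΔPod and K2A. Triangles are long libraries, circles short libraries, and black bars the mean ± SD of 3 libraries (lower ends beneath 0 are not drawn): Mvd is level within WT and ΔPod and lowest in K2A 3, Hmgcs1 and Fasn separate by symbol as much as by group, and Elovl6 and Scd1 are highest in the triangles of ΔPod and K2A.

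The later steps, from lanosterol to cholesterol, were uneven. Dhcr7, which carries out the last reduction, stood at 34.8, 20.9 and 31.4 CPM in the WT libraries, 7.92, 11.4 and 24.002 in ΔPod and 9.48, 8.92 and 14.0 in K2A. The K2A libraries lay below WT without overlap, and ΔPod 3 lay above WT 2. Dhcr7 fell with the length slope, -0.71 (SE 0.17, adjusted p = 0.0237) in ΔPod and -1.08 (SE 0.17, adjusted p = 0.0033) in K2A. Sc5d, a desaturase of the sterol ring, stood at 52.5, 48.2 and 53.6 CPM in the WT libraries, 46.3, 34.9 and 34.5 in ΔPod and 31.98, 33.5 and 28.8 in K2A. All mutant libraries were below all WT libraries, and the log2 fold change with the length slope was -0.51 (SE 0.14, adjusted p = 0.0382) and -0.78 (SE 0.13, adjusted p = 0.00478). Msmo1, the sterol C4 methyl oxidase, stood at 53.6, 46.9 and 39.4 CPM in the WT libraries, 58.4, 29.6 and 31.2 in ΔPod and 30.5, 32.4 and 12.8 in K2A. ΔPod 1 was the highest library of all and K2A 3 the lowest, and Msmo1 fell with the length slope in K2A, -1.26 (SE 0.25, adjusted p = 0.0108), with -0.62 (SE 0.25, adjusted p = 0.127) in ΔPod. The difference between those genotypes was not called, at -0.64 (SE 0.23, adjusted p = 0.182) in K2A against ΔPod. The other 5 genes of these steps, Cyp51, Tm7sf2, Nsdhl, Hsd17b7 and Ebp, did not pass in either fit. Their log2 fold changes with the length slope ran from -0.54 (Nsdhl) to 0.22 (Cyp51) in ΔPod and from -0.44 (Nsdhl) to -0.081 (Ebp) in K2A. Cyp51 differed from most in direction, at 273 to 291 CPM in WT and 310.0 to 420.2 CPM in ΔPod with no overlap, and at 182 to 348 CPM in K2A on both sides of WT.

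Of the 18 sterol enzymes, then, 7 fell and none rose in ΔPod and 8 fell and none rose in K2A with the length slope (against 7.99% and 8.34% of all tested genes that fell), and 0 were called in either with groups only. The median of the 18 was -0.41 in ΔPod and -0.57 in K2A with groups only, and -0.50 in both with the length slope.

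Among the regulators, the genes of the SREBP proteins followed the split of the libraries. Srebf1 stood at 89.6, 34.9 and 72.5 CPM in the WT libraries, 11.6, 13.1 and 84.3 in ΔPod and 20.4, 17.4 and 32.1 in K2A. ΔPod 3 lay inside the WT range, whereas the short ΔPod libraries and all K2A libraries lay below it. Its log2 fold change was -0.85 (SE 0.76, adjusted p = 0.575) in ΔPod and -1.49 (SE 0.78, adjusted p = 0.573) in K2A, and neither passed with the length slope (-0.56 and -0.79). Srebf2 stood at 149.8, 69.0 and 132 CPM in the WT libraries, 26.9, 44.8 and 140.2 in ΔPod and 46.6, 49.6 and 85.8 in K2A. Long libraries were high and short libraries low in every group, and the log2 fold change was -0.72 (SE 0.61, adjusted p = 0.555) in ΔPod and -0.94 (SE 0.61, adjusted p = 0.686) in K2A. Srebf1 and Srebf2 had positive values in the long ΔPod library alone, 0.069 and 0.0072 against the long WT libraries.

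Scap, the SREBP escort, stood at 147, 88.7 and 129.8 CPM in the WT libraries, 25.9, 49.3 and 103 in ΔPod and 52.8, 51.0 and 105 in K2A. It fell in ΔPod with the length slope, -0.69 (SE 0.15, adjusted p = 0.0172), and had -0.43 (SE 0.15, adjusted p = 0.0814) in K2A. Insig1, itself a target of SREBP, stood at 52.7, 59.6 and 46.4 CPM in the WT libraries, 74.6, 40.3 and 44.1 in ΔPod and 41.3, 44.7 and 18.8 in K2A. The K2A libraries lay below WT without overlap and ΔPod spanned the WT range. Insig1 fell in K2A with the length slope, -0.93 (SE 0.21, adjusted p = 0.0184), and had -0.33 (SE 0.21, adjusted p = 0.306) in ΔPod. Insig2, a second SREBP anchor, stood at 49.4, 74.0 and 48.4 CPM in the WT libraries, 119, 84.6 and 39.3 in ΔPod and 67.8, 68.6 and 45.2 in K2A. Its groups overlapped, short libraries were above long ones in each group, and the log2 fold change with the length slope was -0.0078 (SE 0.16, adjusted p = 0.98) and -0.23 (SE 0.15, adjusted p = 0.335). Stard4, a sterol carrier, and Lpin1, which makes diacylglycerol and acts in transcription, did not pass. Stard4 lay between 60.6 and 79.1 CPM in WT, 70.5 and 82.3 in ΔPod and 46.4 and 73.8 in K2A, with 0.26 in ΔPod and -0.26 in K2A with the length slope. In ratio, Lpin1 had the widest range of the 34 genes, from 3.69 CPM in ΔPod 1 to 182 CPM in K2A 3, with 28.5 to 92.8 CPM in WT.

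Among the fatty acid genes, the gene that supplies acetyl-CoA from acetate, Acss2, and a desaturase gene, Fads2, lay below WT, and the genes of chain elongation and monounsaturation, Elovl6 and Scd1, lay above it. Acss2 (chromosome 2, 155517948 to 155585724), the cytosolic synthetase that turns acetate into acetyl-CoA, stood at 453, 274 and 379 CPM in the WT libraries, 61.1, 94.8 and 189 in ΔPod and 110.2, 113 and 216 in K2A. Each of the 6 mutant libraries was lower than WT 2, the lowest of WT, and the long library was the highest in both mutant groups. In the fits this came to -1.68 (SE 0.48, adjusted p = 0.211) in ΔPod and -1.33 (SE 0.48, adjusted p = 0.333) in K2A with groups only, and -1.35 (SE 0.13, adjusted p = 0.000288) and -1.005 (SE 0.13, adjusted p = 0.0013) with the length slope. Acss2 shares 395 exon bases with Gss on the opposite strand, whose counts reach 22829, and the strand setting of the counting is not stated. Acly, which makes acetyl-CoA from citrate, did not pass, with -0.032 and 0.044 in the same fit.

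The central synthesis genes showed no call with groups only or with the length slope. Fasn, the fatty acid synthase, stood at 93.6, 16.1 and 87.2 CPM in the WT libraries, 11.6, 11.5 and 69.2 in ΔPod and 18.7, 32.2 and 155 in K2A. Long libraries were high and short libraries low in all 3 groups, and the groups overlapped. Fasn had a log2 fold change of -1.09 (SE 1.04, adjusted p = 0.599) in ΔPod and 0.062 (SE 1.03, adjusted p = 0.984) in K2A, and with the length slope -0.26 (SE 0.42, adjusted p = 0.71) and 0.63 (SE 0.39, adjusted p = 0.31). Within the length classes Fasn lay below WT in ΔPod, at -0.37 in the long libraries and -0.53 in the short ones. In K2A it lay above WT in both, at 0.79 and 0.62. The long class holds 1 library of each mutant group, and the short class 1 of WT. Acaca, which makes malonyl-CoA, stood at 15.7, 5.01 and 14.4 CPM in the WT libraries, 1.99, 2.88 and 11.2 in ΔPod and 3.81, 5.39 and 11.0 in K2A. It too followed the split of the libraries, with -1.12 (SE 0.74, adjusted p = 0.469) in ΔPod and -0.79 (SE 0.74, adjusted p = 0.772) in K2A.

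Elovl6 (chromosome 3, 129532355 to 129638495), which elongates palmitate to stearate, was higher in every mutant library than in any WT library. It stood at 14.999, 9.91 and 16.04 CPM in the WT libraries, 34, 56.1 and 92.5 in ΔPod and 29.5, 34.3 and 98.4 in K2A. The lowest mutant library, K2A 1, lay clearly above the highest WT library, and ΔPod 3 and K2A 3 were the highest. Elovl6 had a log2 fold change of 2.16 (SE 0.57, adjusted p = 0.162) in ΔPod and 1.99 (SE 0.56, adjusted p = 0.204) in K2A with groups only, and 2.63 (SE 0.16, adjusted p = 2.10e-05) and 2.25 (SE 0.15, adjusted p = 3.90e-05) with the length slope. Scd1 (chromosome 19, 44394455 to 44407879), which desaturates stearate to oleate, stood at 258, 110.3 and 234 CPM in the WT libraries, 353, 321 and 1106 in ΔPod and 423, 459 and 933 in K2A. Again no mutant library overlapped WT, and the long libraries were the highest in every mutant group. That made a log2 fold change of 1.56 (SE 0.60, adjusted p = 0.327) and 1.59 (SE 0.60, adjusted p = 0.357) with groups only, and 1.99 (SE 0.24, adjusted p = 0.000791) and 2.03 (SE 0.24, adjusted p = 0.000668) with the length slope. Its relative Scd2 did not pass (-0.18 and -0.45 with the length slope), and how reads that match both were counted is not stated.

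Fads2, the first desaturase of polyunsaturated fatty acids, stood at 280.2, 159 and 265 CPM in the WT libraries, 47.8, 95.1 and 194 in ΔPod and 87.7, 89.0 and 139 in K2A. The K2A libraries lay below WT without overlap, and ΔPod 3 lay above WT 2. It fell with the length slope in both, -0.74 (SE 0.19, adjusted p = 0.0354) in ΔPod and -0.73 (SE 0.20, adjusted p = 0.0349) in K2A. Fads1, the next desaturase, had -0.057 and -0.29 in that fit and did not pass. Of the 9 fatty acid genes, 2 fell (Acss2 and Fads2) and 2 rose (Elovl6 and Scd1) with the length slope in each genotype. Of all tested genes 7.99% fell and 6.09% rose in ΔPod in this fit, and 8.34% and 7.46% in K2A. With groups only 0 of the 9 passed.

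Within groups, the spread of the 34 genes ran with the split of the libraries by transcript length. In 19 of them the long libraries lay above the short ones in every group, and in 6 they lay below in every group. The share of all tested genes that did so was not counted, so these counts mark no trait of the 34 genes. Over the 34 genes, the log2 difference between long and short libraries ran with merged exon length (Spearman's rho 0.71, n = 34 genes, which share the same 9 libraries). The classes were set by the slope of these same counts on exon length. A positive rho was therefore built in, and it is no separate result about these genes. Lpin1, Fasn and Acaca lay at the high end and Pmvk and Insig2 at the low end. The fit that carries the length slope called 12 genes in ΔPod and 13 in K2A, and the fit without it called 0 in each.

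**Figure D4:**
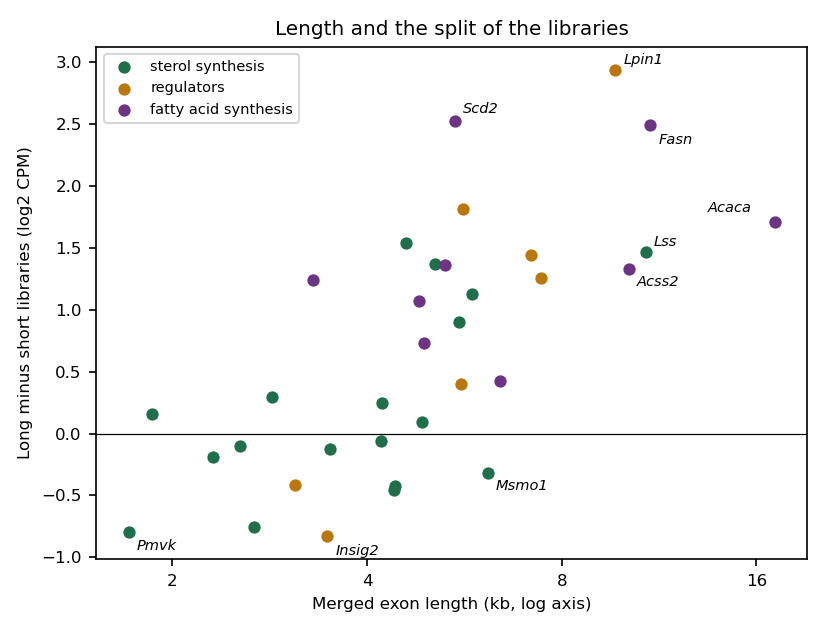
Difference in log2 CPM between long and short libraries (vertical axis, mean of the 4 long minus mean of the 5 short libraries) against merged exon length in kb (log axis), 1 point per gene, coloured by role. Points rise from left to right (rho 0.71), with the long transcripts of Lpin1, Fasn and Acaca at the top. A rise is built in, since the libraries were classed by their slope of counts on exon length.

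Fat cells express the lipogenic genes strongly, so markers of fat were summed in each library. The sum of 13 fat markers was 61.2, 94.1 and 57.6 CPM in WT, 543, 152 and 47.6 CPM in ΔPod and 481, 1262 and 112 CPM in K2A. ΔPod 1, K2A 1 and K2A 2 stood out, with no marker at 0 counts, and Thrsp, a lipogenic gene of fat and liver, was highest in the same libraries at 68.5, 66.4 and 199.7 CPM. None of the 12 tested markers passed with groups only, and 8 rose in K2A with the length slope. In K2A 3 the sum lay above all 3 WT libraries, with 4 of 13 markers at 0 counts, and in ΔPod 3 it lay below them, with 2 at 0. Adiponectin (Adipoq) was at 0 counts in ΔPod 3 and K2A 3, which allows up to 0.0604 and 0.0726 CPM by counting error. These were the libraries with the highest Elovl6 and Scd1. In the long libraries alone the log2 fold change of Elovl6 was 2.59 in ΔPod and 2.68 in K2A, and that of Scd1 was 2.18 and 1.94, with 1 mutant library each. The part of fat in any of these values was not tested. Markers of the urothelium, which lines the renal pelvis, summed to 7.98 to 15.6 CPM in WT, 1.27 to 57.0 CPM in ΔPod and 13.4 to 121 CPM in K2A, and were highest in the same 3 libraries. The 10 markers of the adrenal cortex, which makes steroids from cholesterol, summed to 106 to 188 CPM in WT, 72.3 to 295 CPM in ΔPod and 69.5 to 182 CPM in K2A, and from 2 to 6 of them were at 0 counts in a library. Most of each sum was Fdx1, a ferredoxin gene that other tissues also express. Without Fdx1 and Akr1b7, left out after their values were seen, the other 8 summed to 0.139 to 0.429 CPM in WT and 0.445 to 1.04 CPM in the mutant groups, with Cyp11b1 and Cyp21a1 at 0 counts in all 9 libraries. The 3 tested markers had positive log2 fold changes in both genotypes with groups only and none passed, while with the length slope Star rose and Fdx1 fell in both. The part of adrenal tissue in the results was not tested.

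**Figure D5:**
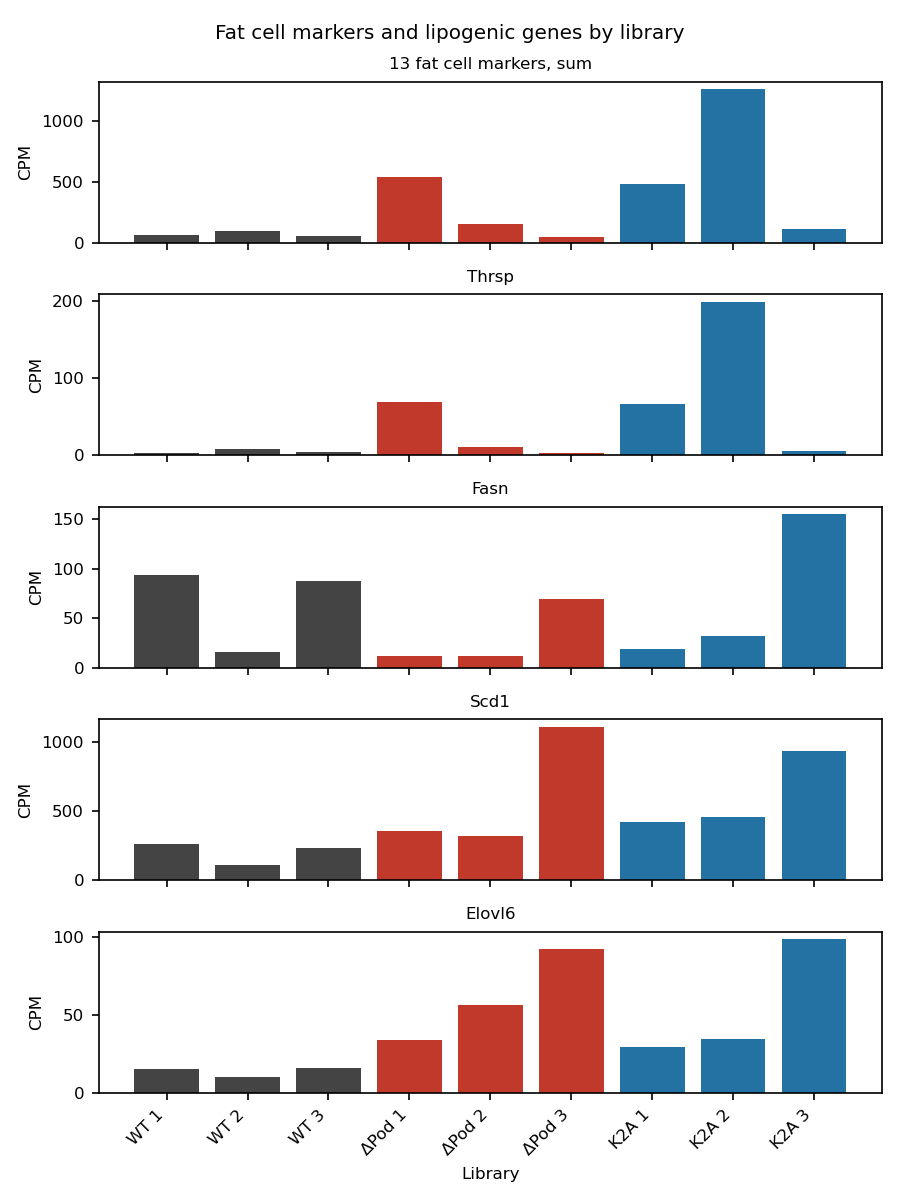
CPM (bars from 0) in each of the 9 libraries, from top to bottom, of the sum of 13 fat markers, Thrsp, Fasn, Scd1 and Elovl6. The fat sum and Thrsp peak in ΔPod 1, K2A 1 and K2A 2, whereas Scd1 and Elovl6 peak in ΔPod 3 and K2A 3.

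Other genes of the same pathways were taken as lists. Of 34 further genes of sterol uptake, transport, esterification, oxysterol handling and SREBP control, 31 were tested and 1 fell in each genotype with groups only. It was Cyp7b1, which hydroxylates oxysterols and is known for higher levels in male than in female mice, at 237, 219 and 187 CPM in the WT libraries, 1.70, 1.73 and 2.7005 in ΔPod and 3.56, 2.96 and 5.32 in K2A. Every mutant library lay far below WT, with -6.71 (SE 0.41, adjusted p = 0.00151) in ΔPod and -5.76 (SE 0.39, adjusted p = 0.00369) in K2A. With the length slope 6 of the 31 fell and 0 rose in ΔPod (against 7.99% and 6.09% of all tested genes), and 7 fell and 1 rose in K2A (against 8.34% and 7.46%). The median of the 31 was -0.16 in ΔPod and -0.04 in K2A with groups only.

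Of 38 further genes of fatty acid supply, elongation, uptake and storage, 36 were tested. Me1, the malic enzyme that supplies NADPH for lipid synthesis, stood at 553, 494 and 575 CPM in the WT libraries, 177, 183 and 204 in ΔPod and 176, 190.4 and 227 in K2A. It fell in both with groups only, with a log2 fold change of -1.52 (SE 0.24, adjusted p = 0.0283) in ΔPod and -1.45 (SE 0.24, adjusted p = 0.0338) in K2A. Cd36, a fatty acid transporter, stood at 642, 552 and 644 CPM in the WT libraries, 129, 196 and 86.9 in ΔPod and 131, 141 and 169 in K2A. It fell too, -2.16 (SE 0.34, adjusted p = 0.0287) and -2.06 (SE 0.34, adjusted p = 0.0338). Lpl, the lipoprotein lipase, fell in K2A, -1.83 (SE 0.29, adjusted p = 0.0291), and had -1.31 (SE 0.29, adjusted p = 0.0895) in ΔPod. With the length slope 8 of the 36 fell and 2 rose in ΔPod (against 7.99% and 6.09% of all tested genes), and 6 fell and 3 rose in K2A (against 8.34% and 7.46%), so the counts that rose were near the shares of the whole table. The median of the 36 was -0.37 and -0.06 with groups only.

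Between the 2 mutant groups, which share the female pattern, few differences were measured. K2A against ΔPod had a median of -0.07 over the 34 genes and -0.01 over all genes. No gene of the 34 and 0% of all genes passed the edgeR test or limma-voom, and DESeq2 called 0 of the 34 and 0.105% of all genes. Idi1 alone had an unadjusted p under 0.05 (2.94%, against 2.01%), with a log2 fold change of -1.18 (SE 0.47, adjusted p = 1). In the length slope fit it was -0.997 (SE 0.18, adjusted p = 0.065), 0 of the 34 were called, and 0.0775% of all genes fell and 0.0996% rose. That count rested on K2A 3 and ΔPod 3: 6 genes were called without the former and 2 without the latter. The Idi1 level of ΔPod 3 lay inside the K2A range. Same-numbered ΔPod and K2A libraries deviated together and were of the same length class. With the replicate number as a block in these 6 libraries, 9 genes of the whole table and 0 of the 34 were called.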

How the data were processed

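Polyadenylated RNA of 9 whole-kidney libraries had been made into libraries with the ScriptSeq v2 kit, per the labels' protocols. The authors deposited raw counts per gene, as whole numbers, in 2 tables that share the WT libraries. The submitters' processing notes name STAR 2.7.3a, featureCounts 2.0.1 and the build mm10, without role or settings. The tables held 52182 and 52169 symbols; of 52163 shared, 3 with unequal WT counts were dropped. Counts were analysed with edgeR 4.0.16 in R 4.3.3: filterByExpr, TMM factors, the quasi-likelihood test on all 9 libraries with a group term, and Benjamini-Hochberg adjustment over 18067 genes at 0.05. CPM are scaled by TMM, and means carry the SD of 3 libraries. A second fit added each library's slope of log2 CPM deviation on log2 exon length (GENCODE vM21). DESeq2 1.42.0, limma-voom (limma 3.58.1), other scalings, filters, a replicate block, length classes and left-out libraries were alternatives. In sensitivity counts, a changed sign was a reversal only if the groups-only log2 fold change exceeded its SE or the alternative called the gene. The test was also tried on simulated data, but the outcome is not reported here and no call above rests on it. Same-numbered ΔPod and K2A libraries correlated at 0.76, 0.40 and 0.85 in their deviations from the group means. In both groups libraries 1 and 2 were short and library 3 was long, so these correlations cannot show pairing. The labels state no pairing, and only the replicate-block fits used the numbers. WT 1, a long library, correlated negatively with both. Counting limits at 0 take 3 counts and cover counting error only. The members and lists were chosen with earlier results of these data known. Full values were given for members called in either fit and for 10 set symbols, and others by range; Lpin1, Cyp51, Thrsp, Adipoq and Plin4 were added after their values were seen. Of the 34 members, 12 share exon bases with another annotated gene, 9 of them on the opposite strand, so their counts are uncertain. Some genes of the lists are not named here.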

Additional observations from a re-analysis of the deposited data

How the results depend on the processing

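The number of genes called over the whole table depended on the setting. In ΔPod (178 genes with groups only) DESeq2 called 998, the 6 libraries alone 54, the replicate block 270, the length slope 2544, the length class 715, the long libraries 4162, the short libraries 46, and the fit without K2A 1 and 2 49; leaving out 1 library gave 23 to 411. In K2A (153) the counts were 909 with DESeq2, 232 with the block, 2854 with the slope, 739 with the class, 5647 and 27 in the long and short libraries and 7 without K2A 1 and 2, and 3 to 291 leaving out 1. Between the mutants (0) they were 19, 32 with the slope, 1677 in the long libraries and 0 to 2. Members called in ΔPod (0) were 4 with DESeq2, 12 with the slope, 6 with the class and 17 in the long libraries, and 0 to 1 leaving out 1; the 1 was Acss2 without ΔPod 3. In K2A (0) they were 1 with library size alone, limma-voom, no filter, the 6 libraries or the block, 6 with DESeq2, 13 with the slope, 7 with the class, 25 in the long libraries, and 0 to 1 leaving out 1. Between the mutants 14 were called in the long libraries, a fit of 4 libraries in which each lone mutant library is assumed to vary like WT. Leaving out 1 library, the median of the 34 ranged from -1.03 (without ΔPod 3) to -0.46 in ΔPod and from -1.03 (without K2A 3) to -0.51 in K2A; the other settings gave -0.63 to -0.35 and -0.71 to -0.43. With the slope, leaving out 1 library gave 6 to 14 members in ΔPod, 9 to 18 in K2A and 0 to 6 between the mutants. The shares of all tested genes called in these fits are not reported here. Reversed in ΔPod were Srebf1 0.069, Srebf2 0.0072, Scd2 0.47 and Insig2 -0.30 in the long libraries, and Insig2 -0.0078 with the slope. Reversed in K2A were Cyp51 -0.62, Tm7sf2 -0.50, Hsd17b7 0.11 and Acly 0.35 in the long libraries, and Pmvk -0.15, Hsd17b7 0.28 and Stard4 0.010 without K2A 1 and 2. Between the mutants Lpin1 (-0.999) and Fasn (-0.30) reversed without K2A 3, and reached 2.98 and 2.58 without ΔPod 3. Of the single-gene values under alternatives, 738 in ΔPod, 720 in K2A and 800 between the mutants stayed uncalled without a counted reversal. Another 39, 55 and 14 crossed to a call with their direction kept. The uncalled values include changes of sign not counted as reversals, such as Mvk in ΔPod, at 0.0055 with groups only and -0.50 with the slope. The cause of these changes was not tested. Upper-quartile scaling moved the median of all genes to 0.26 in ΔPod and 0.24 in K2A, and that of the members to -0.40 and -0.46. Same-numbered WT and mutant libraries correlated at -0.62 and -0.54 for replicate 1 and from 0.44 to 0.76 for the others, so WT and mutant numbers were not taken as pairs; the replicate block added no member call in ΔPod and Idi1 in K2A. Between the mutants it gave 0 genes with all 9 libraries and 9 in the 6 mutant libraries alone, a fit added after seeing the data. Depth did not limit the members, whose lowest count was 55.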

Other observations

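K2A 3 held the highest levels among the 9 libraries of Lpin1 (182 CPM), Fasn (155 CPM), Acly (279 CPM) and Plin4, a lipid droplet protein gene (21.3 CPM). The 13 fat markers summed to 112 CPM there, above the 57.6 to 94.1 CPM of WT, with 4 of them, Adipoq among these, at 0 counts. These values rest on 1 library, and their cause was not tested.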
